A study of Homo sapiens with 4 samples.

Results

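Acetylation of histone H3 at lysine 27 (H3K27ac) covered 375 promoter regions of at least 1500 bp in control KGN cells, and these broad promoter regions are described here. KGN is an established human granulosa tumor cell line, called an immortalized granulosa cell in the labels and grown in DMEM-F12 with serum. Chromatin immunoprecipitation and sequencing gave 1 immunoprecipitated (IP) and 1 input library of control cells. It gave 1 of each from cells that received testosterone for 24 h, at a dose the labels write as 10 um. Both groups share the line and the medium, and the labels name neither a genetic change nor a vehicle for the control. The regions were selected on measured values: entries of the authors' control table whose annotation places them within 1 kb of a gene start, with a length of at least 1500 bp, on chromosomes 1 to 22 and X. They are 375 of 19110 control regions (2.0%) and of 10934 control promoter regions (3.43%), and belong to 370 genes. The other 10559 control promoter regions, all under 1500 bp, serve as the comparison and are called the shorter regions. The testosterone table holds 604 regions, of which 192 lie within 1 kb of a gene start. With 1 IP library per condition no difference between conditions has a replicate check, so no p-value is given. Length, fold, pileup, significance and position in the control table are descriptions of the selected regions.

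Acetylated H3K27 marks the nucleosomes around active transcription start sites and active enhancers. It is written mainly by the acetyltransferases p300 and CBP, removed by histone deacetylases and read by bromodomain proteins. At most active promoters the mark flanks a nucleosome-depleted gap over the start, and at some genes it spreads well into the transcribed region. Long acetylated promoter domains have been described at genes of cell identity. Testosterone acts through the androgen receptor and is also the substrate from which granulosa cells make estradiol.

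Of 24 markers of granulosa cells, 6 had any control promoter region, and 1 of these was broad. Over all 8286 genes with a control promoter region 4.47% had a broad one, and 6 genes are too few to compare with that share. The broad one lay at FOXL2, the transcription factor of granulosa identity, with a length of 1701 bp and a fold of 10.7 over the local background. The other marked genes were ESR2, INHBB, FDX1, RUNX1 and NR2F2, with longest regions between 243 and 1331 bp. No control promoter region lay at the defining genes GATA4, FSHR, AMH, CYP19A1 or STAR. Of 26 markers of other cell types, 4 (EPCAM, KRT8, KRT18 and GDF9) had a control promoter region, and none was broad. Control regions more than 1 kb from a start were assigned to some markers without a promoter region. These were CYP11A1 (7), WNT4 (3), NR5A1 (2) and FST (1) of the granulosa markers, and ZP3 (4), VWF (1) and INSL3 (1) of the others.

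Promoter sequence is shown for the longest broad region (MRPS34), the one of largest fold (NFIB) and 4 of those that a testosterone region overlapped (CYP4V2, TPM2, MRPS26 and FASTK). Each is the RefSeq window of 300 bases on GRCh38.p14, 250 before and 50 after a gene start, written 5′ to 3′ on the strand of the gene. Capitals mark CpG dinucleotides, the sites of DNA methylation. All of these windows lie wholly inside their broad region. At CYP4V2, TPM2, MRPS26 and FASTK the testosterone region lay elsewhere in the broad region and did not overlap the window shown. MRPS34 is at chr16:1773085-1773384 on the minus strand and holds 41 CpG. NFIB is at chr9:14314905-14315204 on the minus strand, with 34. CYP4V2 is at chr4:186191317-186191616 on the plus strand, with 36. TPM2 is at chr9:35690007-35690306 on the minus strand, with 24. MRPS26 is at chr20:3045802-3046101 on the plus strand, with 39. FASTK is at chr7:151080760-151081059 on the minus strand, with 34. All 6 are rich in G and C.
MRPS34: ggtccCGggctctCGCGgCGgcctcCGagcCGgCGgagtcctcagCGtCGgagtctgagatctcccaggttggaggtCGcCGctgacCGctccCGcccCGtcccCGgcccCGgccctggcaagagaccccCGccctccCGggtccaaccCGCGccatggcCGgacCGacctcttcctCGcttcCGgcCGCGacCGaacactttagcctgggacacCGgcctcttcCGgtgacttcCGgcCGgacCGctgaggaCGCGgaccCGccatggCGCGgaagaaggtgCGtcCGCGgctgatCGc
NFIB: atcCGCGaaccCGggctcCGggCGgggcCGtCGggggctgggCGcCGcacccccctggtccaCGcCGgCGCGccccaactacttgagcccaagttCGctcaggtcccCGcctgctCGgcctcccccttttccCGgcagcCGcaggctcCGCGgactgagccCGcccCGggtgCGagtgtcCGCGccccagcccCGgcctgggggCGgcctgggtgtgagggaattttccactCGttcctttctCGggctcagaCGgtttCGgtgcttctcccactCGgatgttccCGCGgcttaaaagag
CYP4V2: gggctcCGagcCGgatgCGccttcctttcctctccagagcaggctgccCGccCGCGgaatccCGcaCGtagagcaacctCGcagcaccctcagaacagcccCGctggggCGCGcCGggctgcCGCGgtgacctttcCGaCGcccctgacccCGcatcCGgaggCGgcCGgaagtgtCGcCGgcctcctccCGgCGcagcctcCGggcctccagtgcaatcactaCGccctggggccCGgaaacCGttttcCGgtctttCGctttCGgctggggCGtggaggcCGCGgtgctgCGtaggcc
TPM2: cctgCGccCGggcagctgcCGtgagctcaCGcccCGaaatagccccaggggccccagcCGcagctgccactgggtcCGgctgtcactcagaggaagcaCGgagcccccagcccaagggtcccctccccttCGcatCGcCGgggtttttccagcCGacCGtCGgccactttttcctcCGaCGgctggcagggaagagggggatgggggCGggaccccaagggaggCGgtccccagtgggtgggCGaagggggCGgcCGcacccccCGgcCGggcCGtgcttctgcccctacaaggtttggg
MRPS26: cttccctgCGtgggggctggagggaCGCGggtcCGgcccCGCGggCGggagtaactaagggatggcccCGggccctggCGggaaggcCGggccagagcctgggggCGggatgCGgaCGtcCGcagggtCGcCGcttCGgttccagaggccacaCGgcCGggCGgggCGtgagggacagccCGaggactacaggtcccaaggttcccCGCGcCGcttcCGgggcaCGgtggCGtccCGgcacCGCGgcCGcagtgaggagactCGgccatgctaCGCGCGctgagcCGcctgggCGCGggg
FASTK: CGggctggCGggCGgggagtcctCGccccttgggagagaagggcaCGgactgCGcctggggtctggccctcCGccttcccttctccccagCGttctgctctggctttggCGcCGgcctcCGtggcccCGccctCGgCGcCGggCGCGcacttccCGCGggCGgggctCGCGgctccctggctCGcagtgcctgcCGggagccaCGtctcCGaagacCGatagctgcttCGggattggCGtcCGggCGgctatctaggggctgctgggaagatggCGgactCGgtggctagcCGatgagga

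The 24 to 41 CpG of these windows compare with an interquartile range of 22 to 39 over the genes with a broad region. A RefSeq window was found for 285 of the 370 genes, and its start lay inside the broad region for 216 of them. The median window held 31 CpG (order-statistic 95% interval 29 to 33) and 71.0% G and C. Windows of genes with a shorter region held a median of 28 CpG and 67.0% G and C, and all 35116 windows of the table a median of 14 CpG and 58.7%. Under 10 CpG were found in 20 windows of broad genes (7.02%), in 5.83% of the windows of shorter ones and in 43.6% of all windows. Windows of one gene can overlap, so these values describe the table.

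Short motifs were searched as exact letters on both strands, and overlaps between motifs were not removed. GGGCGG, the GC box bound by SP and KLF factors, was present in 82.8% of broad windows (Wilson 95% interval 78.0 to 86.7), 76.3% of shorter and 45% of all windows. CCAAT, the NF-Y box, was present in 30.2%, 35.7% and 34.6%. CCGGAAG, an ETS-type core, was present in 14% (10.5 to 18.5), 19.8% and 10.3%. The GC box was thus the most frequent motif. In the shorter windows the GC box had an interval of 75.2 to 77.3 and the ETS-type core one of 18.9 to 20.8. Neither overlapped that of the broad windows, the first lying below it and the second above it, and no test was made. TATAAA was present in 3.86%, 4.63% and 11.5%. The E-box CACGTG was present in 8.07%, 9.81% and 7.26%. TGANTCA, the AP-1 site, was present in 4.91%, 3.83% and 7.71%, and TGACGTCA, the CREB site, in 2.46%, 3.42% and 1.85%. The letters ACTACAA, then any base, then TCC, a ZNF143-type motif, were in 1 broad window (0.351%), in 2.28% of shorter and in 0.988% of all windows. These are matches of letters, and nothing about binding was measured.

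Lengths of the broad regions ran from 1501 to 4578 bp, with a median of 1800 bp, and 17 regions exceeded 3000 bp. Together they covered 738 kb, which is 7.15% of all control-marked sequence and 11.1% of that in promoter regions. Fold enrichment, the authors' ratio of the IP at the summit to the local background, ran from 2.69 to 18.4 with a median of 7.48. The median was 5.34 in the shorter regions and 4.99 over all control regions. Strength varied widely: 151 broad regions (40.3%) were in the top 10% of control fold, at or above 8.11, and 24 had a fold under 4. Pileup, the signal in fragments at the summit after the caller's scaling, ran from 11.2 to 65.6 with a median of 25.3, against a median of 17.8 in the shorter regions. The −log10 q ran from 1.74 to 48.4 with a median of 12.4. Length and fold were weakly related among the broad regions (Spearman's rho 0.129 over 375 regions of 1 library, a description only), and more so over all promoter regions (0.324).

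**Figure D1:**
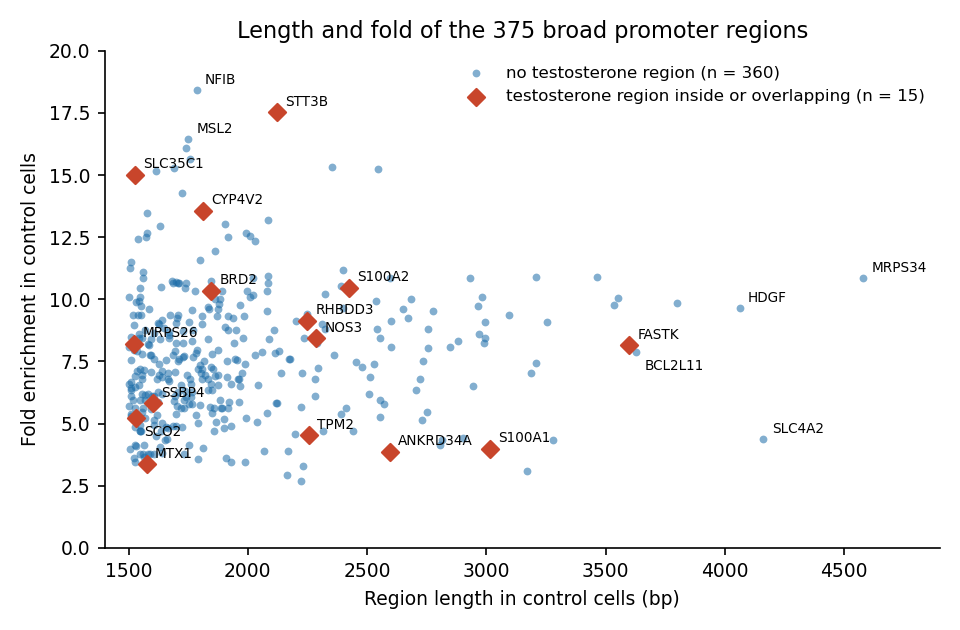
Control fold enrichment (a ratio, vertical axis) against control region length in bp (horizontal axis) for the 375 broad promoter regions, with the 15 overlapped by a testosterone region drawn as red diamonds. The longest region (MRPS34, 4578 bp) and the one of largest fold (NFIB, 18.4) are different regions, and the red diamonds span folds from 3.36 to 17.5.

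The longest region, 4578 bp at a fold of 10.8, lay at MRPS34, which encodes a mitochondrial ribosomal protein. It also lay on the bodies of EME2, MAPK8IP3 and NME3. The second, at the anion exchanger gene SLC4A2, measured 4161 bp at a fold of 4.38. The third, at the growth factor gene HDGF, measured 4061 bp at a fold of 9.64. SAMD11 had broad regions of 3799 and 3277 bp, at folds of 9.86 and 4.34. The others among the 10 longest lay at BCL2L11, FASTK, ACTG1, SLC9A3R2 and TRIM8. BCL2L11, which encodes the proapoptotic protein BIM, had 3628 bp at a fold of 7.90. ACTG1, cytoplasmic gamma-actin, had 3552 bp at a fold of 10.0. Fold thus ranged from 4.34 to 10.9 among the 10 longest, and none of them was among the 10 of largest fold.

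The largest fold, 18.4, was at NFIB, a nuclear factor I transcription factor, in a region of 1786 bp. STT3B, a catalytic subunit of the oligosaccharyltransferase that adds N-glycans, followed with 17.5 over 2123 bp. MSL2, of the complex that acetylates histone H4 at lysine 16, had 16.4. The synaptic scaffold gene RIMS2 had 16.1 and DCAF5, a ubiquitin ligase substrate receptor, 15.6. The circadian repressor BHLHE40 and the zinc finger gene ZFP30 both had 15.3. CORO1B, an actin regulator, and CENPM, a centromere protein, both had 15.2, and SLC35C1, the Golgi GDP-fucose transporter, followed them at the 10th rank. These 10 regions measured 1527 to 2545 bp.

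Just inside the length limit were RERE, CCDC88C and CEP85L, each of 1501 bp, with folds of 6.58, 5.69 and 8.10. Just outside were PHLDB1 (1499 bp), SFMBT1 (1498 bp) and ETHE1 (1497 bp), with folds of 6.51, 5.64 and 4.82. None of these 6 was overlapped by a testosterone region. These 6 were picked by length alone. Median control fold was 6.70 in promoter regions of 1000 to 1499 bp and 7.07 in those of 1500 to 1999 bp.

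The local background, solved from fold and pileup, had a median of 2.41 in the broad and 2.27 in the shorter regions. It was at least 4 in 95 broad regions (25.3%) and in 19.1% of the shorter, and at least 6 in 21 broad regions (5.60%) and in 4.69% of the shorter. SLC4A2 and the second SAMD11 region, which combine great length with low fold, had backgrounds of 5.0 and 7.0. The part of input coverage or copy number in these values was not tested.

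Relative to the gene start of the authors' annotation, the broad regions extended to both sides. The start itself lay inside 329 of the 375 (87.7%), against 51.7% of the shorter regions. At least 500 bp on both sides were covered in 177 (47.2%). A further 109 (29.1%) held the start and at least 500 bp downstream but less upstream, 43 (11.5%) held it with under 500 bp downstream, and 46 (12.3%) lay wholly to one side of it. The median reach was 721 bp upstream and 1136 bp downstream. Extent therefore leaned into the gene: the median share of length downstream was 58.3% (55.2 to 65.1). In the shorter regions it was 78.1%.

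**Figure D2:**
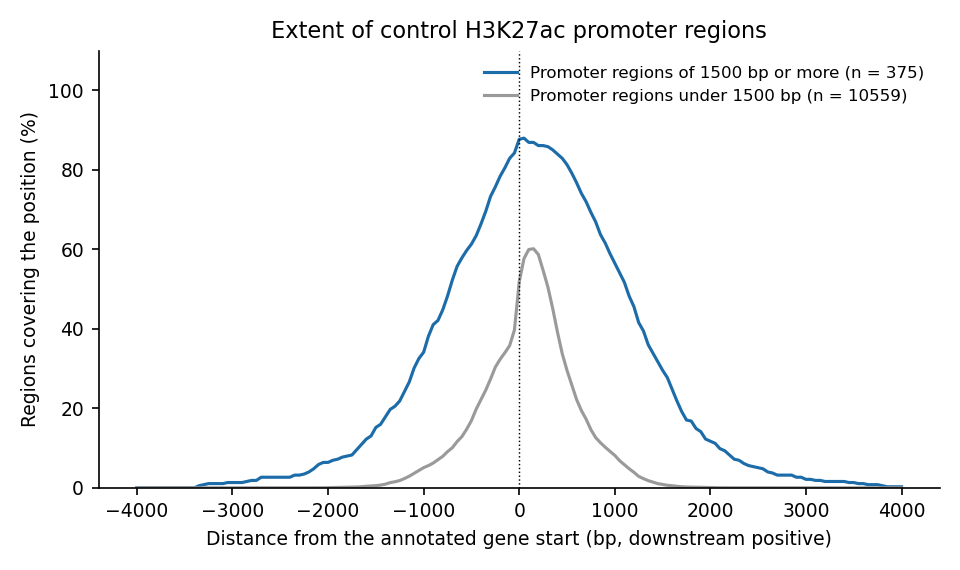
Percent of regions (vertical axis) that cover each position, by distance from the annotated gene start in bp (horizontal axis, downstream positive), for the 375 broad regions in blue and the 10559 shorter ones in gray. At 50 bp upstream 84.3% of the broad and 39.7% of the shorter regions are covered, and at 1450 bp downstream 31.7% and 1.06%.

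Coverage of the broad regions was close to a plateau from the start to 450 bp downstream, where 82.9% were covered (33.8% of the shorter), and 58.9% were covered at 950 bp. On the upstream side 32.5% were covered at 1050 bp and 13.1% at 1550 bp. A wider spread is what the length rule selects, and the measured asymmetry is the added description. The summit, the position of highest signal, lay at a median of 118 bp downstream of the start, close to the 112 bp of the shorter regions. It was within 300 bp of the start in 155 broad regions (41.3%) and in 59.6% of the shorter, and within 1000 bp in 296 (78.9%) and 95.3%. It lay downstream of the start in 216 (57.6%).

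Some regions reached far to one side. The farthest upstream reach was 3384 bp at ZBTB7B, 3379 bp at the H3K27 demethylase gene KDM6B and 3315 bp at the corepressor gene RCOR2. All of these lay wholly upstream of the annotated start, ZBTB7B by 539 bp, KDM6B by 968 bp and RCOR2 by 333 bp. Each of them still overlapped the RefSeq body of its named gene. The RefSeq start was 7603 bp away at RCOR2 and 1619 bp away at KDM6B. The farthest downstream reach was 5044 bp at HDGF, whose region began 985 bp inside the gene. SAMD11 reached 3844 bp and SLC4A2 3756 bp. For a SAMD11 region the RefSeq start was 14112 bp away. At ACTG1 the region reached 3277 bp upstream and 274 bp downstream, with its summit 2380 bp upstream. At ACTB, cytoplasmic beta-actin, a region of 2673 bp ended 33 bp upstream of the annotated start. The actin genes were thus both marked mainly on the upstream side of the starts given.

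The annotated start was not always the RefSeq start of the gene. RefSeq gave a start for 374 of the 375, and it lay inside the broad region for 276 (73.8%), within 1 kb outside for 63 (16.8%) and more than 1 kb away for 35 (9.36%). It was over 5 kb away for 23, among them RERE, RAI1, NOS3 and SSBP4. At NOS3 the RefSeq start was 14897 bp away, and it was 15293 and 28697 bp away from the 2 broad regions of SSBP4. Some of these regions lay on the body of the named gene, as at NOS3, and others outside it, as at PHGDH, whose RefSeq start was 63166 bp away. Of the genes that a testosterone region overlapped, NOS3, SSBP4 and ANKRD34A (1817 bp) are among those more than 1 kb away. The median share downstream was not recomputed with these starts. With the RefSeq window start nearest to the authors' start, over only the regions whose gene has a window, it was 57.9%.

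Protein-coding gene bodies overlapped 359 broad regions, and at least 2 of them overlapped 59 (15.7%), against 8.23% of the shorter. At least 3 were overlapped by 4 broad regions, assigned to MRPS34, LRRC8A, SEPT10 and EFNA4. Read-through genes are counted separately here, such as KYAT1-SPOUT1 at LRRC8A and EFNA4-EFNA3 at EFNA4. A longer region can also meet more gene bodies, and the part of length was not tested. Another control region lay within 1 kb of 152 broad regions (40.5%) and of 38.7% of the shorter. In 6 cases 2 broad regions were neighbors within 10 kb. The closest pair, both at ZBTB7B, was 250 bp apart, and AKT1 and ZBTB42 were 4268 bp apart.

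Roles were assigned by hand to the 370 genes after the members were known, from general knowledge, so they describe the set and were not tested. The groups were signalling enzymes, receptors, ligands or adaptors (66 genes), transcription factors (54), chromatin proteins or cofactors (41), metabolism or mitochondria (36), cytoskeleton, adhesion or matrix (34), membrane transport or trafficking (27), RNA processing or translation (20), cell death, cell cycle or genome maintenance (16) and the ubiquitin system or autophagy (15). No role was assigned to 61. Of all 8286 genes with a control promoter region, these 370 are 4.47%, a share that the length rule itself fixes.

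**Figure D3:**
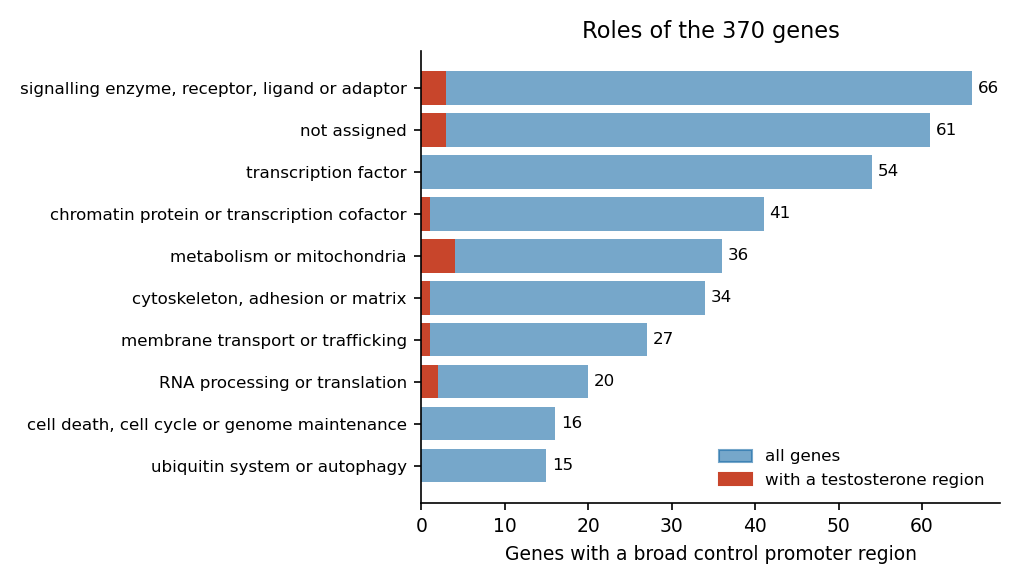
Number of genes with a broad control promoter region (horizontal axis) by hand-assigned role (vertical axis), with those overlapped by a testosterone region in red. Signalling (66 genes) and transcription factors (54) are the 2 largest named groups, and the latter has no red segment.

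The 54 transcription factors had 56 broad regions with a median length of 1862.5 bp and a median fold of 7.79. The longest was 3255 bp, at ZBTB7B, and the largest fold was that of NFIB. They include HOX genes (HOXB5, HOXB9 and HOXC9), the NF-kappaB subunit RELA, the oxidative stress regulator NFE2L2, the hedgehog effector GLI2 and GATA2. CEBPB, which acts downstream of the luteinizing hormone surge in granulosa cells of the mouse, had a region of 2084 bp at a fold of 13.2 and a pileup of 45.9. SREBF1, the regulator of lipid synthesis, had 2529 bp at 7.38, and the cell cycle factor E2F3 had 1868 bp at 5.07. FOSL1, an AP-1 subunit, had 1607 bp at 5.16, in a region that began 39 bp downstream of its annotated start.

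Chromatin proteins and cofactors numbered 41 genes with a median length of 1819.5 bp and a median fold of 8.13. EP300, which encodes the acetyltransferase p300, had a region of 1507 bp at a fold of 11.3. BRD2, a bromodomain protein that binds acetylated histones, had 1846 bp at 10.3. The deacetylase gene HDAC10 had 1852 bp at 7.21. The nuclear receptor corepressor gene NCOR1 had 1668 bp at 8.45. EP300, BRD2 and HDAC10 were the 3 broad ones among 28 marked genes of a histone acetylation list, chosen with earlier results known. The chromatin group also holds EZH2, JARID2 and CBX8 of Polycomb complexes, the H3K36 methyltransferases NSD1 and SETD2, and MSL1 beside MSL2.

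Signalling genes had a median length of 1832.5 bp and a median fold of 7.03. They include NOTCH1, JAK2, AKT1, the 14-3-3 genes YWHAZ and YWHAG, and 4 S100 calcium-binding proteins (S100A1, S100A2, S100A4 and S100A10). Of phosphatases that act on MAP kinases, DUSP2 had 2389 bp at a fold of 5.38, and SPRY4, an inhibitor of receptor tyrosine kinase signalling, had 2361 bp at 7.74. In BMP signalling the receptor gene BMPR1A had 1892 bp at 10.3 and the inhibitor SMAD6, counted with the transcription factors, 1837 bp at 9.62. The Hippo pathway gene AMOTL2 had 1533 bp at 9.90, and IER3, an immediate early gene, 1630 bp at 4.07.

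Genes of the cytoskeleton, adhesion and matrix had a median length of 1854.5 bp and a median fold of 6.93. Beside the actins they include the integrin subunit ITGB1, the laminin LAMA5, plectin (PLEC) and the tropomyosin TPM2. Metabolic and mitochondrial genes had the median length 1727.5 bp and the median fold 7.20, and the longest, 3207 bp, lay at the enolase gene ENO3. Its neuronal paralog ENO2 had 1918 bp at a fold of 12.5. HSD17B1, which converts estrone to estradiol in granulosa cells, is in this group, as are the serine synthesis genes PHGDH and PSAT1. The HSD17B1 region began 294 bp downstream of its annotated start and had a fold of 4.02 at a local background of 6.0.

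RNA and translation genes had a median fold of 8.27, and include the RNA decay factors ZFP36L1 and ZFP36L2, and IGF2BP1 and IGF2BP2. HNRNPA0 had 1969 bp at 6.53. Genes of cell death and the cell cycle had a median fold of 7.06. They include the BCL2 family members BAD and BOK beside BCL2L11, and CCND1, cyclin D1, with 1670 bp at 6.71. Ubiquitin and autophagy genes had a median fold of 7.53, with SQSTM1, UBE2D2 and UBE2D3 among them.

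Over 16 gene lists that hold 447 genes, 320 had a control promoter region and 28 of these (8.75%) a broad one, beside the 4.47% over all genes. The lists were picked with earlier results of these data known, so the share supports nothing beyond this count. Broad regions were held by 3 of 23 marked immediate early and AP-1 genes, 3 of 19 MAP kinase feedback genes, 3 of 23 TGF-beta and BMP genes, 3 of 29 actin genes and 3 of 28 histone acetylation genes. Hippo and cell cycle genes had 2 broad members each, of 19 and 19. ATF4 and unfolded protein response, glycolysis, cholesterol synthesis, splicing, KLF and SP, and granulosa lists had 1 each, of 19, 17, 24, 29, 12 and 6. In each of these lists most marked genes had only shorter regions.

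After testosterone 15 of the 375 broad regions were overlapped by a testosterone region by at least 1 bp (4.0%, Wilson 95% interval 2.44 to 6.49), and 360 were not. The share was 0.884% over all control regions, 0.942% over all control promoter regions and 0.833% (0.677 to 1.03) over the shorter promoter regions. A long region is more easily touched than a short one, so the number of testosterone regions was also counted per length. It was 21.7 per Mb of broad region (16 regions, exact Poisson 95% interval 12.4 to 35.2) and 14.9 per Mb of shorter region (11.9 to 18.3). The share of regions thus differed with intervals that did not overlap, while the intervals per Mb overlapped. All intervals cover counting error only.

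**Figure D4:**
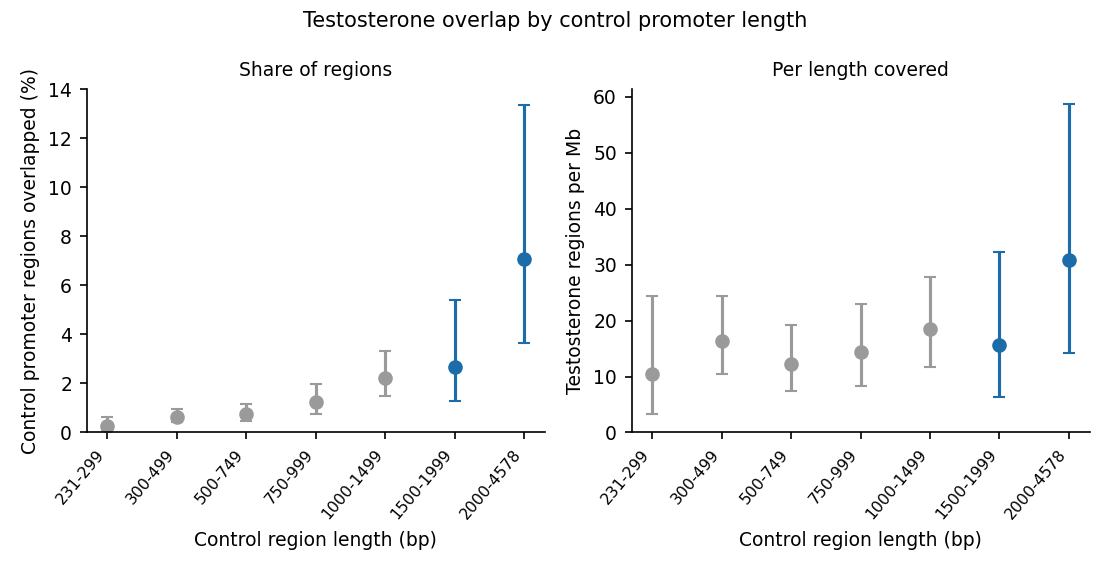
Percent of control promoter regions overlapped by a testosterone region with Wilson 95% intervals (left) and testosterone regions per Mb of control promoter region with exact Poisson 95% intervals (right), by control region length in bp, with the broad classes in blue and 1 library per condition. The share rises from 0.275% at 231 to 299 bp to 7.08% at 2000 to 4578 bp, and the intervals per Mb overlap in all classes.

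By length class, 2.67% of regions of 1500 to 1999 bp (7 of 262) and 7.08% of those of at least 2000 bp (8 of 113) were overlapped. Per Mb these were 15.7 (6.31 to 32.3) and 30.9 (14.1 to 58.6). The class just below the limit, 1000 to 1499 bp, gave 2.22% and 18.5 per Mb (11.7 to 27.8). Within 10 kb, 36 broad regions (9.60%, 7.02 to 13) had a testosterone region, against 4.32% of the shorter. By gene, 15 of 370 broad genes (4.05%) and 1.81% of the 7916 other genes with a control promoter region had a testosterone region within 1 kb of the gene start. These are not all genes of the 15 overlapped regions. At NOS3, TPM2 and ANKRD34A the testosterone region was annotated 1 to 2 kb from the start. That at FASTK was assigned to TMUB1. RAI1, CBX8, UBTF and ITGB1 had such a testosterone region beside the broad region and not on it.

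What was called after testosterone was small. The 16 testosterone regions measured 224 to 679 bp, with a median of 287.5 bp, and overlapped the broad regions over 4780 bp. This is 0.648% of the sequence in all broad regions and 15% of that in the 15 overlapped ones. Of the 16, 14 lay wholly inside, and those at CYP4V2 and TPM2 crossed an edge. No broad region was covered over more than 29.7% of its length. Testosterone fold ran from 3.87 to 6.26 in these 16, in a list that runs from 3.01 to 7.89, and pileup ran from 8 to 19. Fold and pileup are scaled within each table, so control and testosterone values are printed side by side and no difference is taken.

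The largest testosterone fold was at NOS3, which encodes endothelial nitric oxide synthase. Its control region (chr7:151008701-151010987, 2287 bp, an inner start of the gene) had a fold of 8.44 and its testosterone region (679 bp) one of 6.26. At BRD2 the control region (chr6:32969283-32971128) had 10.3 and the testosterone region (271 bp) 5.85. At S100A2, a calcium-binding protein of epithelia, a control region of 2425 bp and fold 10.5 held a testosterone region of 224 bp and fold 5.36. S100A2 had the highest pileup in both tables among the 15, 61.8 in control and 19 after testosterone.

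At CYP4V2, a fatty acid hydroxylase, the control fold was 13.6 over 1813 bp and the testosterone fold 5.31 over 311 bp. At SLC35C1 it was 15 over 1527 bp and 5.19 over 234 bp. At TPM2, beta-tropomyosin, it was 4.54 over 2255 bp and 4.92 over 308 bp. ANKRD34A, an ankyrin repeat gene, had control and testosterone folds of 3.87 and 4.53. S100A1 had 3.99 and, for both of its testosterone regions, 4.17. MTX1, a mitochondrial outer membrane protein gene, had 3.36 and 3.91. The control backgrounds at TPM2, ANKRD34A, S100A1 and MTX1 ran from 5.0 to 11, and their control pileups from 26.2 to 39.3, beside testosterone pileups of 10 to 12.

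At the mitochondrial ribosomal gene MRPS26 the control fold was 8.21 and the testosterone fold 4.74. At SCO2, a copper chaperone of cytochrome c oxidase, these were 5.24 and 4.64. At FASTK they were 8.16 and 4.55, and the testosterone region lay 2408 to 2711 bp upstream of the FASTK start, nearest to the neighboring gene TMUB1. FASTK encodes a mitochondrial RNA-binding protein. Its broad region overlaps the bodies of both genes, with 510 bp downstream and 3087 bp upstream of the FASTK start. At RHBDD3, a rhomboid family gene, they were 9.14 and 4.40. At STT3B they were 17.5 and 3.9, and at SSBP4, a single-stranded DNA-binding protein gene, 5.82 and 3.87. The control fold of STT3B was the second largest of all broad regions, at a control background of 1.09, close to the lowest of any control region. Its testosterone fold lay below the median of the testosterone list, 4.64, and the folds are not compared between conditions.

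By role, the overlapped genes were 4 of 36 for metabolism or mitochondria (CYP4V2, MTX1, SCO2 and STT3B), 3 of 66 for signalling (NOS3, S100A1 and S100A2), 2 of 20 for RNA or translation (FASTK and MRPS26), and 1 each of 41 for chromatin (BRD2), of 34 for the cytoskeleton (TPM2) and of 27 for transport (SLC35C1). ANKRD34A, RHBDD3 and SSBP4 had no assigned role. None of the 54 transcription factors, 16 death and cell cycle genes or 15 ubiquitin genes was overlapped. Among the 28 broad list genes, BRD2 and TPM2 were overlapped. FOXL2, EP300, CEBPB, CCND1, ACTB and ACTG1 were not. The overall share was 15 of 375 regions (4.0%), and with so few overlapped regions these counts were not compared between roles.

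**Figure D5:**
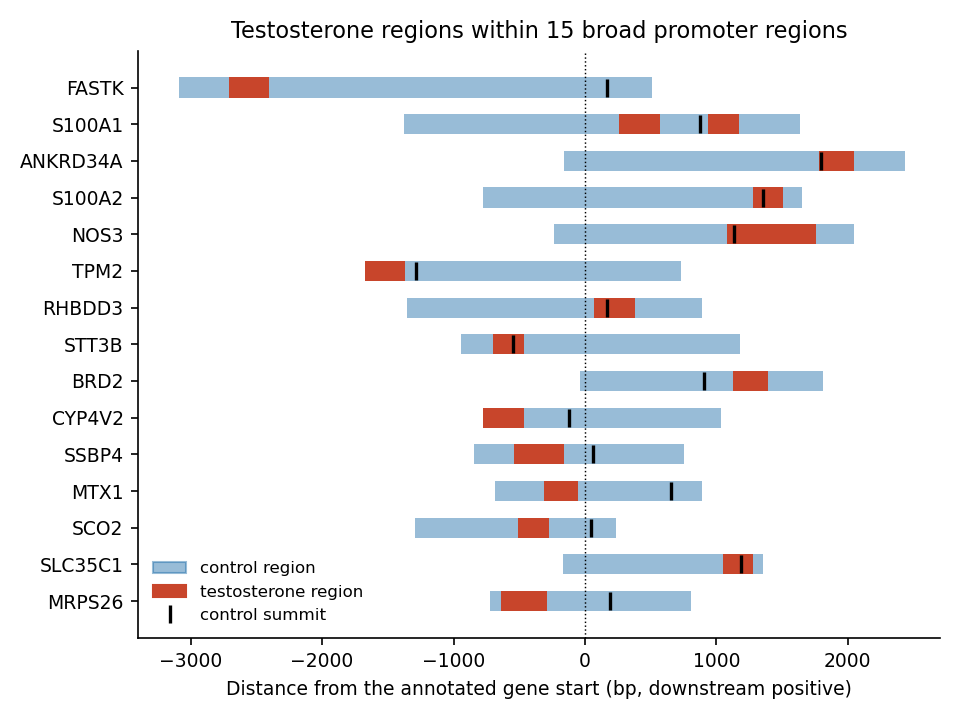
Position relative to the annotated gene start (bp, downstream positive, horizontal axis) of the control region in blue, the testosterone region in red and the control summit as a black line, for the 15 overlapped broad regions (vertical axis, longest at the top). Testosterone regions take up 6.87 to 29.7% of each broad region, and 8 of 16 lie downstream of the start by their summit.

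Of the 16 testosterone summits, 8 lay upstream and 8 downstream of the gene start, and 4 were within 500 bp of it. They were not always at the control summit: the gap between both summits ran from 18 bp at S100A2 to 2681 bp at FASTK, with a median of 281.5 bp. It was at most 100 bp in 5 cases (S100A2, SLC35C1, ANKRD34A, RHBDD3 and NOS3) and at most 300 bp in 8. At S100A2, SLC35C1, ANKRD34A and NOS3 both summits were more than 1 kb downstream of the annotated start. The S100A2 region overlapped no protein-coding gene body of RefSeq. At MRPS26 the control summit was 192 bp downstream and the testosterone summit 598 bp upstream of the start.

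Overlapped and other broad regions are set side by side, with no test. Median length was 2123 bp in the 15 and 1791.5 bp in the 360, median control fold 8.21 and 7.43, and median control pileup 30.9 and 25.3. The local background in the control table had medians of 3.48 and 2.41, and it was at least 4 in 6 of 15 and in 89 of 360. The highest value among the 15, 11, was at MTX1, which has a pseudogene copy nearby, and ANKRD34A and S100A1 had 7.0. How reads that match several places were treated is not given in the sources used here. Chromosome 1 held 4 of the 15 and 40 of the 360. Of broad regions with a background under 4, 9 of 280 (3.21%, 1.70 to 5.99) were overlapped, and 16.3 testosterone regions fell per Mb. With a background of 4 or more, 6 of 95 (6.32%, 2.93 to 13.1) were overlapped, and 37.6 testosterone regions fell per Mb. The shorter regions also had the larger share at the higher background. It was 62 of 8539 (0.726%, 0.567 to 0.930) under 4 and 26 of 2020 (1.29%, 0.880 to 1.88) at 4 or more. Per Mb of shorter region these were 13.1 and 21.7. The part of background in the overlap was not tested.

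Beyond the 15, another 21 broad regions had a testosterone region within 10 kb. The nearest was at RAI1, 376 bp from the broad region and at a testosterone fold of 5.57. ZNF398, CBX8, FOSL1, WNK1 and UBTF followed at 1049, 1070, 1332, 1407 and 1753 bp, with testosterone folds of 5.19, 5.47, 4.03, 6.03 and 4.64. KMT2E, an H3K4 methyltransferase family gene, had one at 2049 bp and a fold of 5.80. At these genes a testosterone region was called near the broad control region and none on it, and they were taken in order of distance after their values were seen.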

How the data were processed

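H3K27ac ChIP-seq of 4 libraries was used through the called regions that the authors deposited, 1 table for each condition, made from 1 IP and the matching input, per the file headers. Bedtools, Bowtie2 2.0, ChIPseeker and MACS2 and the builds mm10 and hg38 appear, without settings, in the submitters' processing notes. Gene positions matched GRCh38. Pileup in the deposited tables is a signal in fragments at the summit, scaled by the caller (inferred from the values). The authors' fold enrichment is the ratio of IP to local background at the summit. Significance is deposited as −log10 p-value and −log10 q-value. In the testosterone table both significance headers were lost to a spreadsheet error, and the columns were identified from order and values. Nearest gene, gene start and annotation are the authors' own. Library totals were not analysed here, and the precision of each region's value is unknown without replicates.

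Distances, overlaps (at least 1 bp), local background ((pileup + 1) / fold − 1), Wilson shares and exact Poisson rates were computed in Python 3.11.15 with numpy 2.4.6, pandas 2.3.3 and scipy 1.17.1, and drawn with matplotlib 3.10.9. The code was tested on simulated data. Promoter windows came from RefSeq (GRCh38.p14), with the window nearest to the authors' start used for each gene. Sequences were printed only where the window lay wholly inside the region, a limit set after the data were seen.

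Members and gene lists were chosen with earlier results of these data known. Named regions were the 10 longest, the 10 of largest fold, all overlapped by testosterone, the 2 longest per list, the 3 reaching farthest each way, 3 on each side of the length limit, and FOXL2, EP300 and STT3B; a few of these are not reported here. Other genes were named after their values were seen, to illustrate roles. Planned classes by gene name were not used because the tables give symbols only, and roles were assigned by hand instead. Alternatives were other length, significance, fold, overlap, chromosome and gene start choices. Those added later were protein-coding genes in RefSeq and a background under 4.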

Additional observations from a re-analysis of the deposited data

How the results depend on the processing

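Of 25 alternatives, 19 left their value within its counting interval or, for counts, within 1.5 times, and 6 moved it by more. At that limit, a control −log10 q of at least 10 gave 250 regions. A length of at least 1000 bp gave 1409 regions and one of at least 2000 bp gave 113, in place of 375. The share overlapped by a testosterone region, 4.0%, became 7.08% at a length of at least 2000 bp, 2.40% when testosterone regions needed a −log10 q of at least 2, and 1.33% when they needed a fold of at least 5. That last choice also lowered the number per Mb from 21.7 to 6.78. Fewer testosterone regions remain under the stricter choices by construction. The shorter promoter regions were not counted under these choices, so the stricter shares cannot be set beside their 0.833%. With a control background under 4, an alternative added after the data were seen, the share was 3.21% and the number per Mb 16.3. The median share of length downstream stayed between 57.3 and 61.3% under its alternatives, and the median CpG count between 30 and 32. No paired analysis was possible because each condition has 1 IP library and no test was made. No replicate could be left out for the same reason. A broad region without a testosterone region had none called, which is not absence of the mark, and the part of depth was not tested.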
